A study of Mus musculus with 18 samples.

Results

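The neuropeptide Y family receptor genes Npy1r, Npy4r and Npy6r were followed across an atlas of the mouse urinary bladder. The 3 genes were named in advance of this account from earlier results of the same data. They are 3 of 29214 genes in the bulk RNA table, and all 3 were also listed in each of the 8 droplet tables, which had 26357 genes in common. The values that chose them were the difference between intact and dissociated bladders in bulk RNA, the cell class in the nuclei and detrusor libraries, and the relation to the muscle genes Myh11 and Actg2 across section spots. Those values are therefore described below without a test.

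All samples came from C57BL/6 mice, and the labels name no altered allele and no treatment. Whole-bladder cell libraries were made at 3 months (3 male mice), 12 months (a pair of libraries, each of 2 female and 2 male mice), 22 months (3 male mice) and 24 months (2 female and 2 male mice). A nuclei library came from whole bladders at 12 months (2 female and 2 male mice). At 14 months, a library of the detrusor, the muscle layer of the bladder wall, came from 3 female mice, and a detrusor-enriched whole-bladder library came from 2 female and 2 male mice. Spatial libraries (Visium, which counts transcripts in an array of spots under a frozen section) comprised 2 sections at 22 months and 2 at 14 months, each labelled with 4 male mice. Bulk RNA with polyA selection was sequenced from 3 intact bladder samples and 3 dissociated bladder samples at 12 months, each labelled with 3 female mice. The labels give a number of mice per sample without saying whether they were pooled, and do not say whether samples of a group came from separate animals, so p-values measure only the spread between these samples.

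Neuropeptide Y (gene Npy) is a peptide that sympathetic nerves release together with noradrenaline, and peptide YY and pancreatic polypeptide (Pyy, Ppy) are its gut and pancreatic relatives. Their receptors are G protein-coupled receptors that act through Gi/o proteins and lower cyclic AMP. Npy1r encodes the receptor best known for constriction of blood vessels, Npy4r encodes a receptor that prefers pancreatic polypeptide, and Npy6r encodes a receptor that is functional in the mouse but a pseudogene in humans.

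The promoter windows of Npy1r and Npy4r are shown because the class that held most UMIs differed between these 2 receptors. For Npy1r it was fibroblast-like cells, and for Npy4r, in the nuclei and detrusor libraries, it was smooth-muscle-like cells. Each is a 300-base RefSeq window (build GRCm38.p6) around the start used by the RefSeq promoter table, written 5′ to 3′ on the gene's strand. The Npy1r window is chr8:66697172-66697471 on the plus strand, and the Npy4r window is chr14:34152370-34152669 on the minus strand. The annotated Npy1r gene spans chr8:66697149-66706800, so its window lies inside the gene and does not hold the first base of the annotated span, and Npy5r lies beside it at chr8:66679965-66688094. The annotated Npy4r gene spans chr14:34145646-34152419. Capitals mark matches to GGGCGG on either strand.
Npy1r: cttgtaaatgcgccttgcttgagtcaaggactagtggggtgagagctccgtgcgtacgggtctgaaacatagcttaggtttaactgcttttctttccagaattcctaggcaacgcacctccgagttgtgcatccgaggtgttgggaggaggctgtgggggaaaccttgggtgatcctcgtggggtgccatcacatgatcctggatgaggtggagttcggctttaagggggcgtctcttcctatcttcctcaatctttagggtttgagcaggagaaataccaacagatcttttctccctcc
Npy4r: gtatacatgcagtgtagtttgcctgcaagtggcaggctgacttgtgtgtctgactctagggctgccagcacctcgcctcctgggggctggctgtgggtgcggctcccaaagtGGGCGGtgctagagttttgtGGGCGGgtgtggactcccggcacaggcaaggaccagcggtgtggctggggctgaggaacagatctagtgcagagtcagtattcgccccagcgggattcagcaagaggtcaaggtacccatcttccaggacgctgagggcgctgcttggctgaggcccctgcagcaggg
The Npy4r window held 2 GGGCGG matches, and the Npy1r window held 0. This motif occurred in 35.7% of all 32851 promoter windows of the same length. TATAAA (13.6% of windows) and the CArG box, the element bound by serum response factor (1.63% of windows), had 0 matches in both windows on either strand, so these letters are not in these windows. The GC content was 51.7% for Npy1r and 62.0% for Npy4r.

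The libraries differed in how much muscle they held. Total UMIs (counted transcript molecules) were 5197910 in the nuclei library, 13281422 to 55374101 in the cell libraries and 21975462 to 32020077 in the sections, and bulk libraries had 23083752 to 68760791 counts. Myh11 stood at 4396 CPM (counts per 1000000 counts of the library) in the nuclei library and at 3.10 to 42.2 CPM in the whole-bladder cell libraries. Between 2 libraries at most 64 cell barcodes were shared, 1.00% of the smaller library. In the dissociated bulk samples all 10 smooth muscle markers fell (median log2 fold change -3.84), all 12 fibroblast markers rose (median 1.30), and 21 of 22 genes of a dissociation response list rose (median 4.31), by edgeR's quasi-likelihood test with Benjamini-Hochberg adjustment. All 6 adipocyte markers fell as well (median -4.76), while 8 of 10 blood endothelial markers (median of the 10, 0.86), all 6 lymphatic endothelial markers tested (0.99) and all 10 macrophage markers (0.59) rose. Of 8 pericyte markers, 2 rose and 4 fell (median -0.52). Over all genes tested, 27.9% were called higher and 31.3% lower. The part of these shifts in the receptor values was not tested. In bulk RNA, fewer cells of a type and less RNA per cell cannot be told apart.

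In bulk RNA, Npy4r and Npy6r were near absent from dissociated bladders and Npy1r was higher there than in intact bladders. Npy4r had 957, 3831 and 1257 counts in the intact libraries, or 40.3, 53.4 and 46.4 CPM, against 43, 35 and 28 counts, or 1.60, 1.32 and 1.22 CPM, in the dissociated ones. The groups did not overlap, and the log2 fold change was -5.07 (SE 0.16), 33.7-fold lower after dissociation. Npy6r had 692, 1442 and 1327 counts in intact bladders (29.1, 20.1 and 49.0 CPM) and 19, 32 and 13 counts in dissociated ones (0.71, 1.21 and 0.57 CPM). Its intact libraries varied more than those of Npy4r, and its log2 fold change was -5.28 (SE 0.43). Npy1r had 2226, 5841 and 2002 counts in intact bladders (93.7, 81.4 and 73.9 CPM) and 5596, 4222 and 3962 counts in dissociated ones (208, 159 and 173 CPM). Every dissociated library was above every intact one, with a log2 fold change of 1.12 (SE 0.13). Of all 16538 genes tested, 59.2% were called at an adjusted p under 0.05, and 67.2% had groups that did not overlap. The 3 receptors were chosen from this contrast, so nothing is read from their count.

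**Figure D1:**
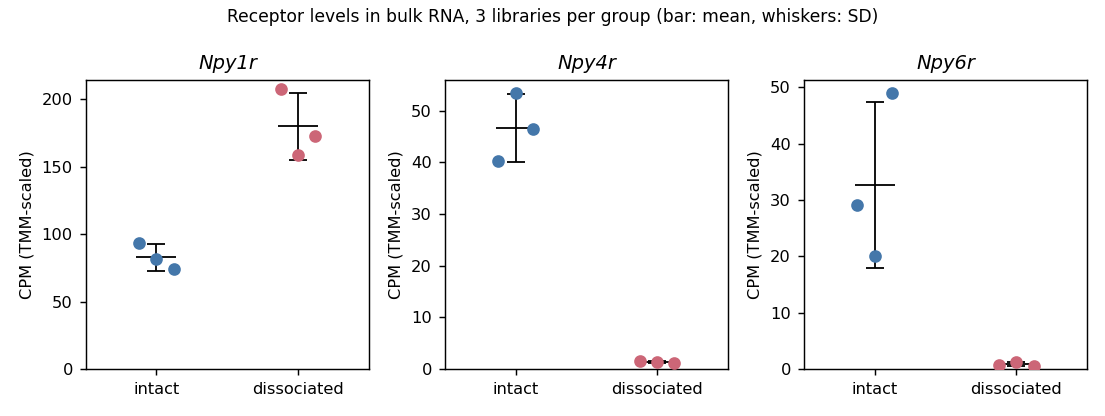
Bulk levels of Npy1r, Npy4r and Npy6r in CPM scaled by TMM (y axis, from 0), in 3 intact and 3 dissociated libraries (points), with the mean (bar) and SD (whiskers). Npy4r and Npy6r lie at 1.60 CPM or below in dissociated bladders, while Npy1r lies above its intact range.

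Set against Myh11 counts, the difference between intact and dissociated bladders was smaller for Npy4r and Npy6r and kept its direction. Npy4r stood at 2.87, 3.55 and 3.34 counts per 1000 Myh11 counts in intact bladders and at 1.36, 1.33 and 1.71 in dissociated ones. Npy6r stood at 2.08, 1.34 and 3.53 per 1000 Myh11 counts before and 0.60, 1.22 and 0.79 after dissociation. For both genes the groups did not overlap on this scale, though for Npy6r the closest values were 1.34 and 1.22. The share of all genes without overlap on this scale was not computed. Both genes were chosen from this contrast, so nothing is read from it. Relative to Actg2, the other contractile gene, Npy4r stood at 9.71 to 15.4 and at 6.73 to 9.03 per 1000 counts. Npy6r stood at 5.79 to 13.4 and at 3.23 to 6.15 per 1000 Actg2 counts, and there its groups overlapped. Npy1r moved the other way, from 5.32 to 6.68 counts per 1000 Myh11 counts in intact bladders to 161 to 242 in dissociated ones.

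In the nuclei and detrusor-only libraries, most Npy4r and Npy6r UMIs lay in smooth-muscle-like cells. In the nuclei library, the 1408 smooth-muscle-like nuclei held 188 of 211 Npy6r UMIs, a level of 103 CPM (95% Poisson interval 88.9 to 119). They held 36 of 39 Npy4r UMIs, a level of 19.8 CPM (13.8 to 27.3). Intervals cover counting error only. An Npy6r UMI was seen in 10.8% of these nuclei (exact binomial interval 9.22 to 12.5%), against 0.64% of 1241 urothelial-like nuclei, with medians of 1072 and 1383 UMIs per nucleus. Npy4r was detected in 2.49% of smooth-muscle-like and 0.08% of urothelial-like nuclei. An Npy4r UMI was seen in 35 of the 1408 nuclei, an Npy6r UMI in 152 and both in 1, of 186 with either. At such low detection few nuclei with both can be seen, so nothing is read from that number.

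Both receptors were also found in the detrusor libraries. In the detrusor-only library, smooth-muscle-like cells held 69 of 94 Npy4r UMIs (14.2 CPM, 11.1 to 18.0) and 46 of 51 Npy6r UMIs (9.47 CPM, 6.93 to 12.6), and 7 of the 74 cells with either gene had both. In the detrusor-enriched library, 146 smooth-muscle-like cells held 6 of 10 Npy4r UMIs and 6 of 17 Npy6r UMIs, which is 4.18 CPM for each (1.53 to 9.09). Each of these kinds of library has 1 sample, so levels carry no test across samples. Outside smooth-muscle-like cells, 3222 fibroblast-like cells of the detrusor-only library held 11 Npy4r UMIs, or 3.75 per 1000 Myh11 UMIs in those cells against 2.20 in smooth-muscle-like cells. Mesothelial-like and pericyte-like cells held 4 each (19.1 and 3.70 per 1000). Blood endothelial, lymphatic endothelial, macrophage and T or NK classes held 1 or 2 each (4.96 to 9.43 per 1000). Npy6r had 0 UMIs in the same fibroblast-like cells, which allows up to 0.107 CPM. In the detrusor-enriched library most Npy6r UMIs lay outside smooth-muscle-like cells, with 4 of 17 in urothelial-like cells (5.02 per 1000 Myh11 UMIs, against 0.67 in smooth-muscle-like cells) and 4 in fibroblast-like cells (1.68 per 1000). Among nuclei, 31 Schwann-like nuclei held 4 Npy6r UMIs in 2 nuclei (118 CPM, 32.1 to 301), or 45.5 per 1000 Myh11 UMIs against 10.3 in smooth-muscle-like nuclei, and 9 lay in urothelial-like nuclei (4.46 per 1000). The ratios to Myh11 outside smooth-muscle-like cells rest on 11 receptor UMIs or fewer and carry no interval. Those of smooth-muscle-like cells in the detrusor libraries pool 2 kinds of cluster, described below, that differ in both receptors. Nothing is therefore read from the order of these ratios. In the 5 whole-bladder cell libraries the 2 receptors were nearly undetected, with 0 to 2 UMIs each per library, while Npy1r had 113 to 1644 UMIs there. Those libraries held 0 to 56 cells called smooth-muscle-like, and the 56 cells of one 12-month library had Myh11 at only 43.4 CPM.

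Smooth-muscle-like clusters of the detrusor libraries fell into 2 kinds, and the receptors divided between them. One kind had Pln, which encodes the calcium pump regulator phospholamban, among its 10 leading genes. The other kind led with Tnnt2, Cnn1, Actg2, Des, Pcp4 or Col25a1. In the detrusor-only library, the 201 cells of Pln-led clusters held 780 Npy1r UMIs (451 CPM, 420 to 484), 4 Npy4r UMIs (2.31 CPM, 0.63 to 5.92) and 0 Npy6r UMIs, which allows up to 1.74 CPM. The other 297 cells held 11 Npy1r UMIs (3.52 CPM, 1.75 to 6.29; 16.3 CPM with doublets kept and 1.64 CPM at Leiden resolution 2), 65 Npy4r UMIs (20.8 CPM, 16.03 to 26.5) and 46 Npy6r UMIs (14.7 CPM, 10.8 to 19.6). Npy1r was thus seen in 90.0% of cells of the first kind and 3.03% of the second, with medians of 8150 and 9859 UMIs per cell, and 2.25% of macrophage-like cells at a median of 8364. The second kind pools deep cells with a shallow cluster led by Pcp4 and Actg2, described below. Its Npy1r level was 1.65 CPM when only cells with at least 1000 UMIs were kept.

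The detrusor-enriched library showed the same division. Its 105 Pln-led cells held 480 Npy1r UMIs (401 CPM, 366 to 439) and 0 UMIs of Npy4r and of Npy6r. Its other 41 smooth-muscle-like cells held 1 Npy1r UMI and 6 UMIs each of Npy4r and Npy6r (25.03 CPM, 9.19 to 54.5). In the detrusor-only library, cells of the other kind, with or without a receptor UMI, had more Actg2 than Pln-led cells: 7905 against 320 CPM. Actg2 was a leading gene of some of these clusters and a smooth muscle marker, so its level there is a description. P2rx1, the ATP receptor of detrusor muscle, stood at 475 against 175 CPM. Both kinds carried Myh11, at 7516 and 4564 CPM. The split by Pln was made after the clusters were seen, and it was not tested. Whether Pln-led cells came from the detrusor muscle or from vessel walls was not tested either.

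**Figure D2:**
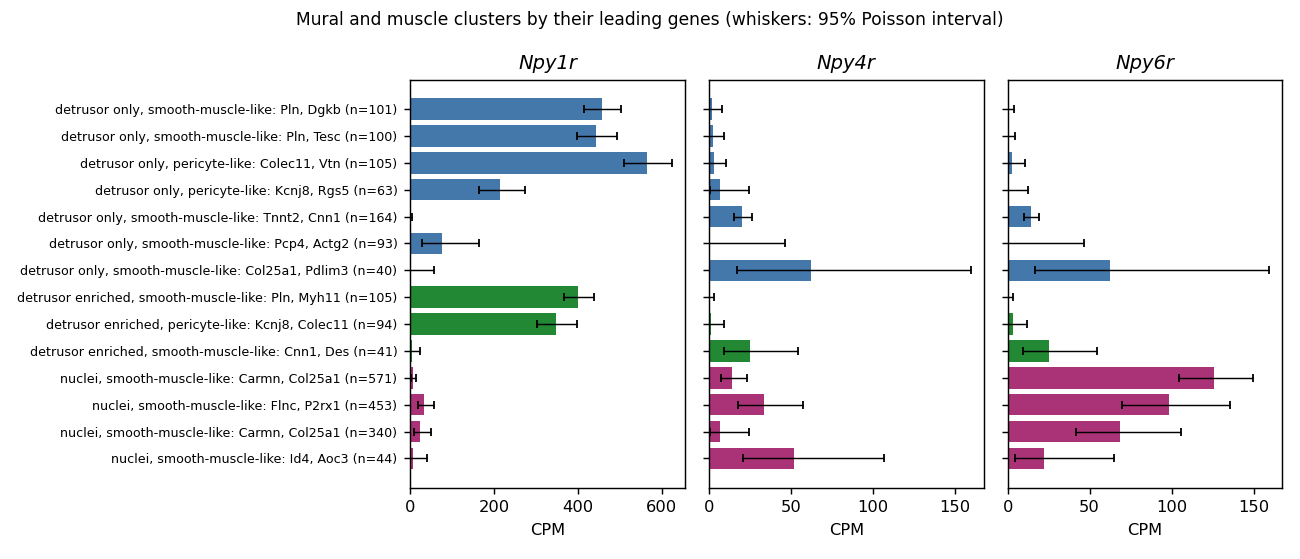
Levels of the 3 receptors in CPM (x axes, each from 0) in smooth-muscle-like and pericyte-like clusters of the detrusor-only (blue), detrusor-enriched (green) and nuclei (purple) libraries, named by 2 leading genes, with the number of cells and 95% Poisson intervals. Most Npy1r UMIs of these clusters lie in Pln-led and pericyte-like ones, and most Npy4r and Npy6r UMIs lie in the other muscle clusters. The detrusor-only cluster led by Pcp4 and Actg2, with few UMIs per cell, holds Npy1r UMIs and none of Npy4r or Npy6r.

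Counts were thin in the smaller clusters. The Tnnt2-, Cnn1- and Actg2-led cluster of 164 detrusor-only cells held 5 Npy1r, 61 Npy4r and 42 Npy6r UMIs. A Col25a1- and Pdlim3-led cluster of 40 cells held 0, 4 and 4. A Pcp4- and Actg2-led cluster of 93 cells held 6 Npy1r UMIs and 0 of the others, at a median of 713 UMIs per cell, where 0 says little. None of the 4 smooth-muscle-like nuclei clusters had Pln among its leading genes. Npy6r ranged from 22.2 to 126 CPM across those 4 clusters and Npy4r from 6.85 to 51.8 CPM. The cluster of 571 nuclei led by Carmn and Col25a1 had the highest Npy6r level, 127 UMIs at 126 CPM, and the cluster of 44 led by Id4 and Aoc3 had the highest Npy4r level, 7 UMIs at 51.8 CPM.

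Npy1r was found in fibroblast-like cells in every kind of droplet library, and in pericyte-like cells of the detrusor libraries. Pericyte-like cells, which wrap small vessels, held 449 Npy1r UMIs in the detrusor-only library (459 CPM, 417 to 503), 216 in the detrusor-enriched library (349 CPM, 304 to 398) and 16 in the 22-month whole-bladder library (115 CPM). The 15 pericyte-like cells of the 3-month library held 2 Npy1r UMIs, and no cluster of the nuclei library was named pericyte-like. Fibroblast-like cells held 10805 of 12157 Npy1r UMIs in the detrusor-only library (384 CPM) and 5978 of 6821 in the detrusor-enriched one (225 CPM). As a whole class, smooth-muscle-like cells stood at 163 CPM in the detrusor-only library and at 335 CPM in the detrusor-enriched one. In the 5 whole-bladder libraries fibroblast-like cells stood at 89.9 to 140 CPM. Fibroblast-like nuclei held 187 of 250 Npy1r UMIs (447 CPM, 385 to 515), against 14.8 CPM in smooth-muscle-like nuclei and 11.5 CPM in urothelial-like nuclei. The intervals of the latter classes, 9.76 to 21.6 and 7.55 to 16.7 CPM, overlapped.

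Within the fibroblast-like cells, the Npy1r level differed between groups of cells. Cells were grouped by which of 3 gene sets gave them the most UMIs: Pi16 and Mfap5, or Inmt, Sult1e1 and Penk, or Car3 and Cxcl14, sets that earlier results of these data had named. Of the 3 groups, the Pi16 and Mfap5 cells had the highest Npy1r level and the Car3 and Cxcl14 cells the lowest in all 8 libraries. The Pi16 and Mfap5 cells ranged from 175 CPM in one 12-month library to 531 CPM in nuclei. The Car3 and Cxcl14 cells ranged from 16.8 to 24.2 CPM in the 5 whole-bladder libraries and stood at 56.7 CPM in the detrusor-enriched library. Only 20 such cells were found in the detrusor-only library and 28 in the nuclei library, with 198 and 145 CPM. The Inmt, Sult1e1 and Penk cells lay between, from 31.4 to 366 CPM. Their Poisson intervals overlapped those of the Car3 and Cxcl14 cells in 3 libraries (nuclei, detrusor-only, and a 12-month library where they held 3 UMIs in 15 cells) and those of the Pi16 and Mfap5 cells in nuclei. Cells in which no set was ahead, 4 to 130 per library and 102 of 396 fibroblast-like nuclei, stood at 114 to 410 CPM. These sets were chosen on the same cells, so the order is a description.

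**Figure D3:**
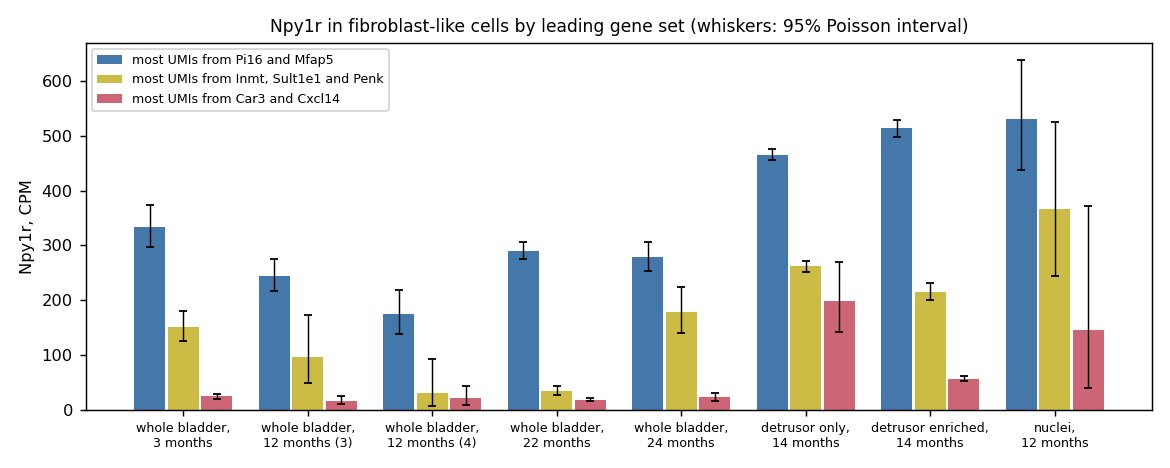
Npy1r in CPM (y axis, from 0) in fibroblast-like cells of the 8 droplet libraries, grouped by the gene set with the most UMIs in the cell; whiskers are 95% Poisson intervals. In each library the Pi16 and Mfap5 cells (175 to 531 CPM) stand above the Car3 and Cxcl14 cells (16.8 to 198 CPM).

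Across 54 summed profiles of named classes with at least 50 cells, the genes most like Npy1r by Pearson correlation of log2(CPM + 1) were Vasn (r 0.88), Trabd2b (0.87), Pde3a (0.86), Pi15 (0.86) and Prrx1 (0.86). Those most like Npy4r were Hcrtr1 (0.88), Col25a1 (0.87), Gria1 (0.85), Ryr2 (0.83) and Myocd (0.83). Those most like Npy6r were Hcrtr1 (0.89), Col25a1 (0.85), Pard3bos1 (0.85), Gria1 (0.84) and Otogl (0.84). Col25a1, Gria1 and Hcrtr1 came up for both Npy4r and Npy6r. Over the same profiles, r with Myh11 and Actg2 was 0.63 and 0.63 for Npy1r, 0.68 and 0.65 for Npy4r, and 0.64 and 0.62 for Npy6r. Myocd encodes a muscle transcription coactivator and Ryr2 a calcium release channel. The median over about 12275 genes was 0.15, 0.10 and 0.13 for the 3 receptors. The profiles share libraries and classes, so these values carry no p. Npy4r and Npy6r had 0 to 2 UMIs in each whole-bladder cell library, so their r rests mostly on the nuclei and detrusor profiles. Cell class in those libraries was among the values that chose the receptors, so the genes shared by Npy4r and Npy6r are a description.

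In the sections all 3 receptors had UMIs in every section. Npy1r had 770 and 535 UMIs at 22 months and 806 and 726 at 14 months, in 35.2 to 48.3% of spots. Npy4r had 414 and 244 UMIs at 22 months and 409 and 432 at 14 months, in 17.6 to 29.6% of spots. Npy6r had 588 and 185 UMIs at 22 months and 193 and 144 at 14 months, in 11.1 to 28.5% of spots. A spot can hold several cells, and median UMIs per spot were 14003 to 17222.

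Npy4r and Npy6r lay in muscle-rich spots in all 4 sections, and the rho of Npy1r with the muscle genes was near 0 or negative. Over spots, Spearman's rho of Npy4r with Myh11 was 0.31 to 0.37 and with Actg2 0.31 to 0.41 (937 to 1317 spots per section). For Npy6r it was 0.17 to 0.38 with Myh11 and 0.22 to 0.45 with Actg2. For Npy1r it was -0.17 to 0.00 with Myh11 and -0.15 to -0.01 with Actg2. By mean rho with Npy1r over the sections, Myh11 and Actg2 ranked 10261 and 10278 of 10322 genes, whose lowest value was -0.18. The mean turned to 0.020 with either gene when spots were thinned to equal depth and shallower spots left out. The rho of Npy1r was 0.25 to 0.32 with the summed fibroblast markers, 0.16 to 0.26 with blood endothelial markers and -0.04 to 0.08 with pericyte markers. Npy4r and Npy6r were negatively related to urothelial markers, at -0.32 to -0.24 and -0.27 to -0.18. The rho of Npy4r with Npy6r was 0.12 to 0.24. Spots of 1 section share its library and depth, so these correlations carry no p.

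Ranking the spots by their share of smooth muscle markers and cutting them into 4 groups of equal size, from 1 (least muscle) to 4 (most), gave the levels. From group 1 to group 4, Npy4r went from 1.11 to 47.1 CPM, from 0.97 to 44.3, from 1.79 to 43.3 and from 1.54 to 55.1 CPM in sections 1 to 4. Npy6r went from 1.28 to 69.6, from 0.58 to 34.9, from 0.77 to 34.0 and from 0.97 to 17.7 CPM. Section 1, at 22 months, thus had the most Npy6r in its muscle-rich spots. In every section the CPM of Npy1r was lowest in group 1 (14.1 to 25.4 CPM). It was highest in group 2 of 3 sections and in group 3 of section 2, at 44.2 to 72.0 CPM. Group 1 spots were deeper, at medians of 36299 to 55076 UMIs per spot against 11279 to 19723 in the other groups. By Npy1r UMIs instead of CPM, group 1 was highest in section 2 (145) and section 3 (298). It was below group 2 alone in section 1 (255 against 268) and section 4 (179 against 270). Ranked by fibroblast markers instead, Npy1r climbed from 7.60 to 13.7 CPM in group 1 to 47.2 to 74.8 CPM in group 4.

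**Figure D4:**
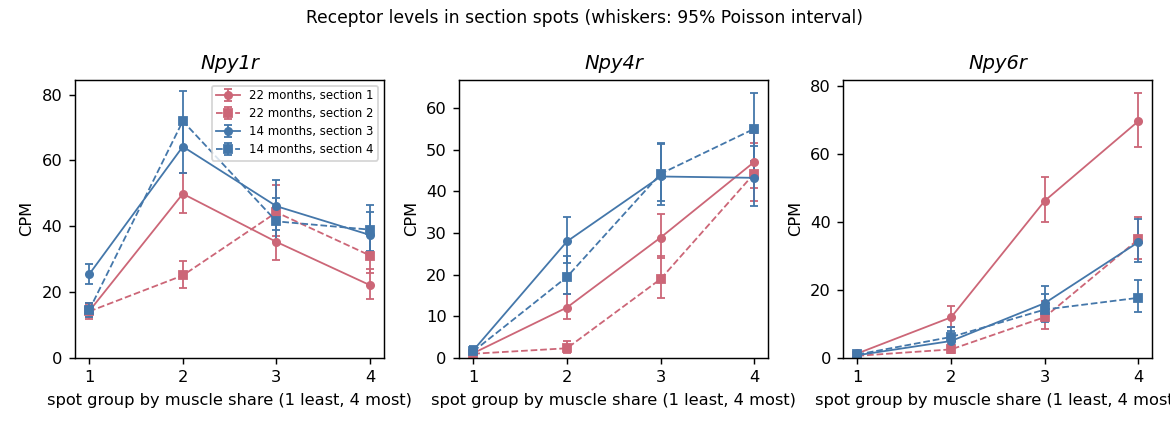
Receptor levels in CPM (y axes, from 0) in 4 equal groups of spots ranked by their share of smooth muscle markers (x axis, 1 is the least muscle), for 2 sections at 22 months (red) and 2 at 14 months (blue); whiskers are 95% Poisson intervals. Npy4r and Npy6r are highest in group 4, except Npy4r in section 3, where groups 3 and 4 stand at 43.6 and 43.3 CPM, while Npy1r peaks in group 2 or 3.

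The genes most like each receptor across spots were found by the mean rho over 4 sections among the same 10322 genes. For Npy4r they were Ckb (0.38), Acta2 (0.38), Smtn (0.37), Actg2 (0.37) and Flna (0.37). For Npy6r they were Actg2 (0.35), Acta2 (0.33), Cnn1 (0.33), Tpm2 (0.32) and Tagln (0.32). For Npy1r they were Fbln1 (0.28), Ltbp4 (0.25), Scara5 (0.25), Pi16 (0.25) and Pltp (0.24), of which Fbln1 and Ltbp4 encode matrix proteins. The median over all genes was -0.04 for Npy4r and Npy6r and 0.02 for Npy1r.

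Age was not used to choose the receptors, and no receptor passed the test between 22 and 14 months. Npy4r stood at 12.9 and 11.3 CPM at 22 months and 18.6 and 18.0 CPM at 14 months, a log2 fold change of -0.59 (SE 0.12; edgeR quasi-likelihood test, adjusted p 0.126). Npy1r stood at 23.9 and 24.8 CPM against 36.6 and 30.3 CPM, a log2 fold change of -0.46 (SE 0.11; edgeR adjusted p 0.173). For both, the 2 groups of sections did not overlap, which held for 51.6% of all genes tested. Npy6r stood at 18.3 and 8.59 CPM against 8.75 and 6.01 CPM, a log2 fold change of 0.88 (SE 0.43; edgeR adjusted p 0.398), with groups that overlapped. Across all 14974 genes, edgeR called 0 (0%), 2481 had an unadjusted p under 0.05, and DESeq2 called 420. Without the filter on low counts Npy4r passed the edgeR test (adjusted p 0.0466). Without section 1 the log2 fold change of Npy6r was 0.21. The summed smooth muscle markers ranged from 21100 to 23350 CPM at 22 months and from 16302 to 23811 at 14 months. The summed dissociation response list did not overlap between ages, at 1586 to 1857 CPM at 22 months and 3306 to 5921 CPM at 14 months (median log2 fold change -1.52, 0 of 22 genes called). Of 19 cell class lists, the macrophage, lymphatic endothelial and Schwann markers also had lower sums at 22 months without overlap (median log2 fold changes -0.31, -0.44 and -0.55), and T or NK and B cell markers had higher ones (1.48 and 2.06). The pericyte and mesothelial sums were higher without overlap, but their median log2 fold changes were -0.03 and -0.52. In these 2 sums Rgs5 stood at 252 and 306 CPM at 22 months against 188 and 138 CPM, and Upk3b at 251 and 278 against 215 and 186 CPM. No marker in these lists was called. The median log2 fold change over all genes was 0.00064. The part of these shifts in the receptor values was not tested.

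The peptides themselves had few counts. In bulk RNA, Npy had 12, 7 and 0 counts in intact bladders and 4, 1 and 17 in dissociated ones. Ppy had at most 2 counts in a library, and Pyy had 0 in all 6. In the nuclei library, 24 of the 26 Npy UMIs came from 1 nucleus of 4729 UMIs, placed in a Schwann-like cluster of 31 nuclei. That nucleus carried UMIs of 4 Schwann markers, of 7 of 8 neuron markers and of Th (4), Dbh (2) and Slc6a2 (11), which make and take up noradrenaline. It was singled out after its values were seen. Among the cell libraries, Npy had 34 UMIs in 18 cells at 3 months, 31 in 20 cells of the detrusor-only library and 43 in 20 cells of the detrusor-enriched library. Fibroblast-like cells held 33, 27 and 33 of these UMIs.

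Among the other genes of the family, Npy2r and Npy5r had few counts, and the peptide-trimming enzyme Dpp4 was found in mesothelial-like and fibroblast-like cells. Npy2r, the main presynaptic receptor of the family, had 4, 13 and 61 counts in intact and 21, 85 and 4 in dissociated bladders and did not pass the test (log2 fold change 0.77, SE 1.17, edgeR adjusted p 0.590). In the detrusor-only library its 34 UMIs all lay in mesothelial-like cells. Npy5r had 3 to 16 counts per bulk library and was too low to be tested. In the detrusor-only library 16 of its 19 UMIs lay in fibroblast-like and 3 in pericyte-like cells. Dpp4, which cleaves neuropeptide Y to a form that no longer activates the Npy1r product, rose in dissociated bladders (log2 fold change 0.88, SE 0.32, edgeR adjusted p 0.0453), with groups that overlapped. In the detrusor-only library Dpp4 stood at 251 CPM in mesothelial-like and 20.8 CPM in fibroblast-like cells. In the Car3 and Cxcl14 group of fibroblast-like cells it stood at 0.35 to 1.74 CPM in 4 libraries. In a 12-month library that group stood at 27.2 CPM, from 9 UMIs in 3 cells. In the other 3 libraries that group held 0 Dpp4 UMIs, which allows up to 2.52 CPM at 12 months, 14.5 CPM in the detrusor-only library and 109 CPM in nuclei. Dpp4 stood at 15.2 to 66.1 CPM in the Pi16 and Mfap5 group and 8.77 to 88.4 CPM in the Inmt, Sult1e1 and Penk group. The ends of the latter range rest on 1 UMI among 23 cells of a 12-month library and 7 UMIs among 77 nuclei.

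Of 76 genes in 7 lists of the pathway, 64 were tested in bulk RNA and 37 were called, 20 higher and 17 lower in dissociated bladders, or 57.8% beside 59.2% of all genes, of which 27.9% were higher and 31.3% lower. Of the genes for Gi/o coupling, adenylyl cyclases and GIRK channels, 5 of 16 tested rose and 6 fell. Gnao1, a Gi/o alpha subunit, fell by 3.05 (log2; SE 0.12), Adcy5 fell by 3.07 (SE 0.15) and Adcy1 by 1.98 (SE 0.18); both Adcy genes encode adenylyl cyclases. Of arrestins, receptor kinases and RGS proteins, which switch such receptors off, 3 of 12 rose and 3 fell. Rgs16 rose by 4.64 (SE 0.16), while Rgs2 fell by 1.34 (SE 0.18) and Rgs5, a pericyte gene, by 1.05 (SE 0.12). The edgeR adjusted p of these 6 genes was at most 0.000531.

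Of receptors for other transmitters on bladder muscle, 5 of 18 rose, 5 fell and 8 were not called (median log2 fold change 0.16, highest 2.37). The 3 with the largest changes all fell: Tacr2, the neurokinin A receptor, by 5.72 (log2; SE 0.34), P2rx1 by 4.82 (SE 0.30) and Chrm2, a muscarinic receptor, by 3.79 (SE 0.15). Beside these, the log2 fold changes of Npy4r and Npy6r were -5.07 and -5.28. Npy4r and Npy6r were chosen from this contrast, so nothing is read from their place beside these receptors. Of autonomic and sensory nerve genes, 3 of 9 tested rose, among them the sensory peptide genes Tac1 (5.66, SE 0.71) and Calca (3.54, SE 0.48), and 2 fell, among them Hand2 (-1.36, SE 0.13). Of peptide processing and cleavage enzymes, 4 of 8 rose, among them Pcsk1 (1.84, SE 0.40) and Fap (1.40, SE 0.30), and Cpe fell by 1.92 (SE 0.11). Of all genes tested, 27.9% were called higher and 31.3% lower, and their median log2 fold change was -0.03.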

How the data were processed

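Gene counts were measured in 18 samples: 8 droplet libraries, 4 Visium sections and 6 bulk libraries. All deposited values are raw counts per gene (UMIs or reads), per the file headers and values. The submitters' processing notes name mm10, bcl2fastq, Cell Ranger, Space Ranger, Subread and featureCounts, with no versions or roles. The members and the gene lists were chosen with earlier results of these data known.

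A cell was kept from 500 UMIs upwards if mitochondrial genes gave no more than 20% of them, doublets were scored against simulated doublets (0.8% removed per 1000 barcodes), and each library was clustered by itself (2000 variable genes, 30 components, 15 neighbours, Leiden resolution 1). Clusters were named from 19 marker lists, requiring 3 markers detected in 10% of cells and raised 2-fold, a rule adjusted after the clusters were seen, so class membership may differ from the study's own. Spots with at least 500 UMIs were used. Summed counts gave CPM with 95% Poisson intervals, shares of cells exact binomial ones, and 0 counts an upper limit of 3.

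Bulk and summed section counts were tested with edgeR 4.0.16 (TMM, filterByExpr, robust quasi-likelihood test, threshold 0.05), with DESeq2 1.42.0 as an alternative, and the fit was tested on simulated data. There, 80% of 2-fold changes were recovered in bulk and 70% in sections, with 10 and 25 false calls. CPM in these tests is scaled by TMM. Likeness used genes at 20 CPM or more in at least 1 profile and genes with a UMI in 10% of spots. Named pathway genes were up to 3 per list by absolute fold change among called genes whose groups did not overlap, beside the 3 receptors, peptides, Npy2r, Npy5r and Dpp4. Transcript lengths were not used, so levels were not compared between genes.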

Additional observations from a re-analysis of the deposited data

How the results depend on the processing

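A value counted as unchanged on the same side of its threshold, within its error or, for counts of called genes, close to the main count. Of 196 pairs of a result and a setting, over 36 results, 178 left the value unchanged in this sense. The bulk log2 fold changes were among them: leaving out each library in turn gave 1.01 to 1.22 for Npy1r, -5.18 to -4.97 for Npy4r and -5.63 to -4.88 for Npy6r, with 8128 to 9782 genes called (main 9798) and 35 to 40 pathway genes (main 37). With library size alone 38.3% of called genes were higher, against 47.2% with TMM and 52.0% with DESeq2, and the median log2 fold change of all genes moved from -0.03 to -0.14. Same-numbered intact and dissociated libraries share only a number (correlations of their deviations 0.28, 0.38 and -0.05, and not every library correlated best with its own number); a replicate block gave 10011 called genes, 37 pathway genes and 1.11, -5.07 and -5.18 for Npy1r, Npy4r and Npy6r.

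In the sections, the main count of 0 became 66 with library size alone, 286 with no filter and 420 with DESeq2, and 1 to 256 when 1 section was left out (256 without section 1 at 22 months). The log2 fold changes then ranged from -0.59 to -0.32 for Npy1r, from -0.70 to -0.51 for Npy4r and from 0.21 to 1.31 for Npy6r. Npy4r kept its value of -0.59 and passed only with no filter. The cause was not tested.

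The mean spot rho of Npy1r reversed with Actg2 from -0.076 to 0.020 when spots were thinned to 5000 UMIs and to 0.036 with Pearson correlation of log2 values, and with Myh11 from -0.070 to 0.020 and 0.063. Thinning lowered the rho of Npy4r with Myh11 to 0.25 and with Actg2 to 0.26, and of Npy6r to 0.21 and 0.24; by construction it takes UMIs from each spot and leaves out shallower spots, 10 to 114 per section. Leaving out sections gave ranges of -0.09 to -0.04 and -0.10 to -0.05 for Npy1r with Myh11 and Actg2, 0.33 to 0.35 and 0.35 to 0.39 for Npy4r, and 0.26 to 0.33 and 0.31 to 0.39 for Npy6r. The settings for the split by Pln were added after the data were seen. There, Npy1r in the other detrusor-only clusters was 1.64 CPM at resolution 2, 16.3 CPM with doublets kept and 1.65 CPM at 1000 UMIs or more. Bulk groups of 3, sections of 2 and single droplet libraries limit what can be shown.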
